A study of Mus musculus with 4 samples.

Results

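The 44 genes described here encode the machinery of mitosis and chromosome segregation, namely the G2/M cyclins and their kinase, the mitotic kinases and spindle checkpoint, the kinetochore, the spindle motors, the cytokinesis apparatus and condensin. They were selected from a list by symbol alone, by a rule that uses no measured value, and all 44 were found among the 23337 gene symbols counted in every sample. The list itself was chosen with earlier results of these data known. RNA-seq was run on Tomato-positive olfactory epithelium cells, sorted after regeneration from 4 mice of mixed background. The 2 mutant samples (Lmnb1-/-, K5Cre;Lmnb1 fl/fl) had both alleles deleted in cells that had expressed Cre, and the 2 control samples (Lmnb1+/-, K5Cre;Lmnb1 fl/+) kept 1 working allele. Every mouse carried the Cre transgene under the Keratin 5 promoter, which is active in horizontal basal cells, the reserve stem cells of this epithelium, and a Cre-dependent Tomato reporter (R26 Ai9). Every mouse also received methimazole at 50 mg/kg, a drug that destroys the epithelium, and recovered for 4 weeks. By design the Tomato-positive cells were therefore horizontal basal cells and what they had produced during regeneration. Transcripts of leukocyte markers and of endothelial, glial and mesenchymal markers were also counted in every sample, as given below. Control 1 and mutant 1 were littermates handled together (experimental group 1), as were control 2 and mutant 2 (experimental group 2). By the submitters' design notes the experimental groups differed in parents, age, sex and treatment, although dose and recovery time carry the same labels in both, and preparation and sequencing were shared only within a group. The tissue is a mosaic, in which cells that never expressed Cre kept lamin B1, and by the study's own staining a small minority of Tomato-positive cells in mutant mice also did.

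A cell enters mitosis when cyclin-dependent kinase 1 is activated by cyclins A and B, and leaves it when the anaphase promoting complex marks cyclin B and securin for destruction. Most of the genes involved are transcribed only late in the cell cycle, under the DREAM and MMB-FOXM1 complexes, which bind a short promoter element called the cell cycle genes homology region (CHR), and NF-Y, which binds CCAAT boxes. In the olfactory epithelium the dividing cells are mostly globose basal cells, which feed the neuronal lineage, whereas olfactory sensory neurons have left the cell cycle. Mitosis transcripts are carried mainly by cycling cells.

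The promoters of the members are shown first because they hold a sequence feature that most of these genes share and that the rule did not use. RefSeq windows (GRCm38.p6), from 250 bases before to 50 bases after the listed start, were given for 36 of the 44 members. A CHR sequence (TTTGAA or TTCGAA, either strand) was present in 28 of the 36 windows, or 77.8%, compared with 19.4% of 27025 RefSeq windows and 14.5% of the 10917 windows of genes tested here. A CCAAT box (CCAAT, either strand) was present in 27 of the 36, or 75.0%, compared with 37.9% and 38.6%. Both were present in 25 members, or 69.4%, compared with 7.70% and 6.0%. An E2F sequence (TTTCCCGC, TTTGGCGC, TTTCGCGC or TTTGCCGC, either strand) was found in 3 of the 36, Cdk1, Ncapd2 and Ncapg, or 8.33%, compared with 2.32% and 3.74%. Letters alone do not show that a factor binds. One promoter is printed for each of 6 roles, that of the member with the smallest p among those holding a CHR sequence, and capitals mark CHR sequences and CCAAT boxes on either strand.
Cdk1, chr10:69352863-69353162, minus strand: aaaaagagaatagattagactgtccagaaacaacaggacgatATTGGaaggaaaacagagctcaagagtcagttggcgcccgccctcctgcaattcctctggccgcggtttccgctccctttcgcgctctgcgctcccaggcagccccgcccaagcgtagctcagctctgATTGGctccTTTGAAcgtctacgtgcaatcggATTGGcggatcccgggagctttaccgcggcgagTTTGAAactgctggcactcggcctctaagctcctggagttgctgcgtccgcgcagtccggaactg
Plk1, chr7:122159185-122159484, plus strand: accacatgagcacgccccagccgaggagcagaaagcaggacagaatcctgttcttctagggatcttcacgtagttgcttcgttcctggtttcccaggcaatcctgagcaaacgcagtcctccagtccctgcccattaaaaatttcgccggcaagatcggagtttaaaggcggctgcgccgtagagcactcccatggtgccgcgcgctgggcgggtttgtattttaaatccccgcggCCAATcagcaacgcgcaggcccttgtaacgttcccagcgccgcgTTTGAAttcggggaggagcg
Cdc20, chr4:118437294-118437593, minus strand: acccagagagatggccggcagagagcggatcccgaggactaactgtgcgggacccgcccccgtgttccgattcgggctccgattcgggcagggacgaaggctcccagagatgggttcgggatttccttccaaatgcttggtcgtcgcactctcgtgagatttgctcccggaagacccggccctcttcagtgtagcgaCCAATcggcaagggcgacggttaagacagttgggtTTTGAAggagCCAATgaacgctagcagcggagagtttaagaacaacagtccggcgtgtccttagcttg
Cdca8, chr4:124936868-124937167, minus strand: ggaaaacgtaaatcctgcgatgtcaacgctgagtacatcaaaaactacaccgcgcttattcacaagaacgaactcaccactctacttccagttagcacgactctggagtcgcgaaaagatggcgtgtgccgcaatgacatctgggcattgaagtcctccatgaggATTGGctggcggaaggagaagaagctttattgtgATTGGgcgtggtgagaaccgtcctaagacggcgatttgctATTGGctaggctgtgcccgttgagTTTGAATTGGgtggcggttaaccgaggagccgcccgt
Cenpf, chr1:189688037-189688336, minus strand: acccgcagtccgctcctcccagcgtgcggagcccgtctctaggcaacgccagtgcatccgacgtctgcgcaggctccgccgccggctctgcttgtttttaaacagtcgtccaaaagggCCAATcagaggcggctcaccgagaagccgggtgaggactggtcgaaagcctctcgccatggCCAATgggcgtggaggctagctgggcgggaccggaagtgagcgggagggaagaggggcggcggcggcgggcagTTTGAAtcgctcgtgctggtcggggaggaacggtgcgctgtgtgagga
Kif2c, chr4:117178723-117179022, minus strand: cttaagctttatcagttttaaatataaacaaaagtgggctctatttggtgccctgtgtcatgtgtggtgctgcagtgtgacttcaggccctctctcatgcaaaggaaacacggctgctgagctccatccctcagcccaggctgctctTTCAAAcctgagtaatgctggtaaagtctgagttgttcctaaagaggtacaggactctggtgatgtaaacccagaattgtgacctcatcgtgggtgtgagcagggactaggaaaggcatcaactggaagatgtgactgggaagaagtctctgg

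In Cdk1 the CHR sequences began at bases -71 and -15 from the start, with CCAAT boxes at -208, -80 and -48. Cdc20, the activator of the anaphase promoting complex, had its CHR sequence at -18 between CCAAT boxes at -53 and -8. In Plk1, Cdca8 and Cenpf the CHR sequence lay just after the start, at 31, 14 and 3, and the Cdca8 sequence overlapped a CCAAT box at 19. Kif2c had a CHR sequence at -103 and no CCAAT box, and its RefSeq window lay inside the GENCODE span of the gene (chromosome 4, 117159639 to 117182639). The Cdca8 window also lay inside the GENCODE span of its gene (chromosome 4, 124918465 to 124939311). Of the 8 windows that belong to members called higher in mutants below, 7 held a CHR sequence, 7 a CCAAT box and 6 both.

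Before the mitosis genes were compared, the samples were checked. Counts in genes summed to between 14833396 (mutant 2) and 23704638 (control 1) per sample. Mutant 1 stood apart, with 39.41% of its uniquely aligned reads outside genes (22.08% to 24.88% in the other samples) and 1603 genes at 0 counts (5173 to 6053). Lmnb1, the targeted gene, was measured at 20.6 and 18.8 CPM (counts scaled to a fixed library total) in control 1 and control 2 and at 14.1 and 10.1 CPM in mutant 1 and mutant 2. The ranges did not overlap, but the difference did not pass the threshold (log2 fold change -0.72, SE 0.31, edgeR FDR, the Benjamini-Hochberg adjusted p, = 0.195). Recombination removes exon 2, and counts per gene do not separate exon 2 from the other exons. Markers of the olfactory epithelium were present in every sample, with Omp, the marker of mature sensory neurons, at 912 to 9665 CPM and Krt5, the keratin of horizontal basal cells, at 628 to 1410 CPM.

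To ask whether the mitosis program differs in cells without lamin B1, mutants were compared with controls in a model with genotype and experimental group across 15438 tested genes, with an adjusted p under 0.05 as threshold. In mutant cells Ccna2, Ccnb1, Cdc20, Ube2c, Cenpf, Kif11, Kif2c, Top2a and Mki67 rose, 9 of the 44, which is 20.5% of the members compared with 1.28% of all tested genes. None of the 44 fell, whereas 4.30% of all tested genes did. At an unadjusted p under 0.05, 27 members were higher and 0 were lower, compared with 975 and 1485 of the 15438 tested genes. The members' CPM summed to 537 in control 1 and 863 in mutant 1, a ratio of 1.61, and to 622 in control 2 and 1034 in mutant 2, a ratio of 1.66. In bulk RNA a smaller or larger number of dividing cells and less or more RNA per dividing cell cannot be told apart.

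**Figure D1:**
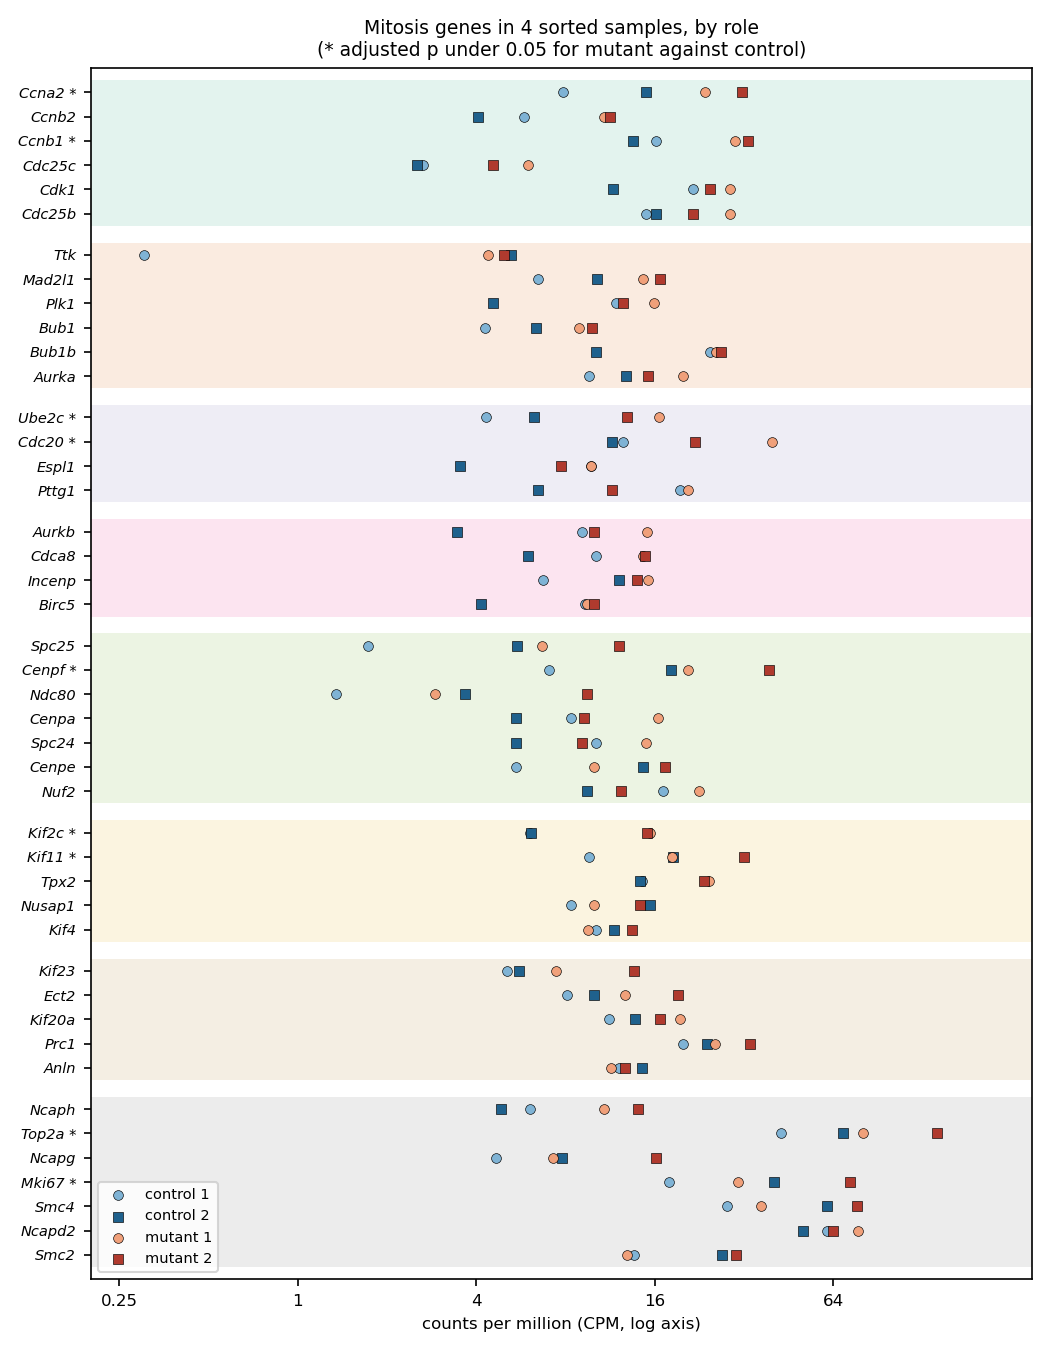
CPM on a log axis of each of the 44 mitosis genes in the 4 samples, grouped in shaded blocks by role, with 1 point per sample (circles, experimental group 1; squares, experimental group 2). Both mutants lie above both controls for 29 genes, and control 1 stands far to the left for Ttk.

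The direction was shared by nearly all members. The log2 fold change was positive for 43 of 44 members, with Anln at -0.14 the exception, and its median was 0.82, compared with -0.01 over all tested genes. Within experimental group 1 the median log2 ratio of mutant 1 over control 1 was 0.78, and within experimental group 2 that of mutant 2 over control 2 was 0.84. In 39 members, or 88.6%, the ratio was above 0 in both experimental groups, compared with 29.8% of tested genes. Both mutants lay above both controls in 29 members, or 65.9%, compared with 12.6% of tested genes, and in 0 members did both lie below. Of the 35 members that did not pass, 34 had a positive fold change. Members that passed had a median SE of 0.28 and a median mean level of 21.2 CPM, and those that did not had a median SE of 0.38 and a median mean level of 11.8 CPM.

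**Figure D2:**
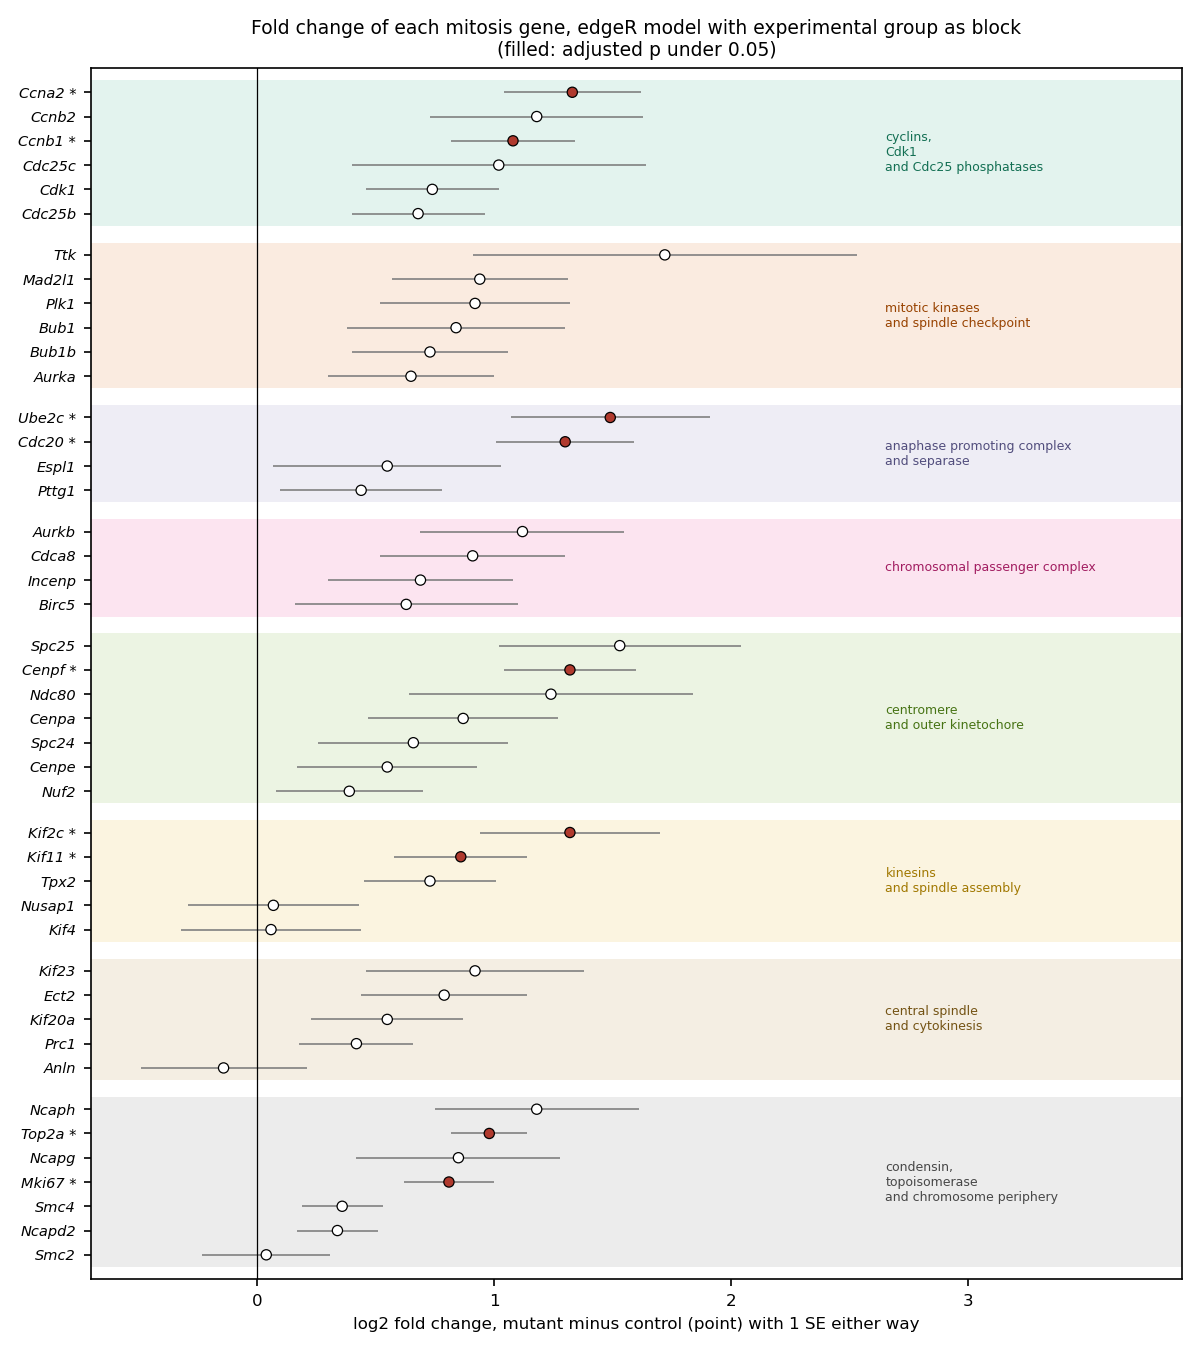
Log2 fold change of mutant over control (points) with 1 SE either way (bars) for each member, ordered within its role, with filled points for an adjusted p under 0.05. All points but Anln at -0.14 lie at or above 0, and the 9 filled points lie between 0.81 and 1.49.

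The number that passed depended on the test. With edgeR's quasi-likelihood test 6 of the 44 members, or 13.6%, were higher, compared with 0.758% of all tested genes. With DESeq2, which gave an adjusted p for 15 members, 6 of those 15 were higher, compared with 1.86% of the 9452 genes to which it gave one. The same 6 members passed both, namely Ccna2, Ccnb1, Cdc20, Cenpf, Top2a and Mki67. Kif11, Kif2c and Ube2c did not pass the quasi-likelihood test (FDR = 0.0730, 0.0556 and 0.0602). Kif11 did not pass DESeq2 either (FDR = 0.104), which gave none for Kif2c and Ube2c. Without experimental group in the model 0 members passed, compared with 0.0389% of all genes, although 8 members still had an unadjusted p under 0.05. Every call thus depended on having experimental group in the model. This held also for Kif2c, whose replicates were nearly alike (6.09 and 6.10 CPM in controls, 15.4 and 15.1 CPM in mutants).

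Transcripts that mark cell types differed between genotypes too. Of 8 markers of mature olfactory sensory neurons, cells that do not divide, all 8 were lower in mutants with the likelihood-ratio test and with the quasi-likelihood test, and 3 of them (Adcy3, Cnga2 and Gng13) with DESeq2. Their CPM summed to 16326 and 7027 in the controls and 8995 and 2000 in the mutants. Markers of globose basal cells and neurogenic progenitors, which include the dividing cells of the lineage, summed to 521 and 603 CPM in the controls and 614 and 748 CPM in the mutants, ratios of 1.18 and 1.24 within experimental groups, and Kit and Hes6 of 8 were higher. Horizontal basal cell markers summed to 2977 and 2136 CPM in the controls and 4174 and 2813 CPM in the mutants, and Krt15 and Egfr of 9 were higher. That count was 1 with the quasi-likelihood test (Krt15) and 8 with DESeq2. The part of these differences in the mitosis result was not tested. With a background of 1.79 counts per kb of exon subtracted from mutant 1, the library with most reads outside genes, 9 members were still called.

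**Figure D3:**
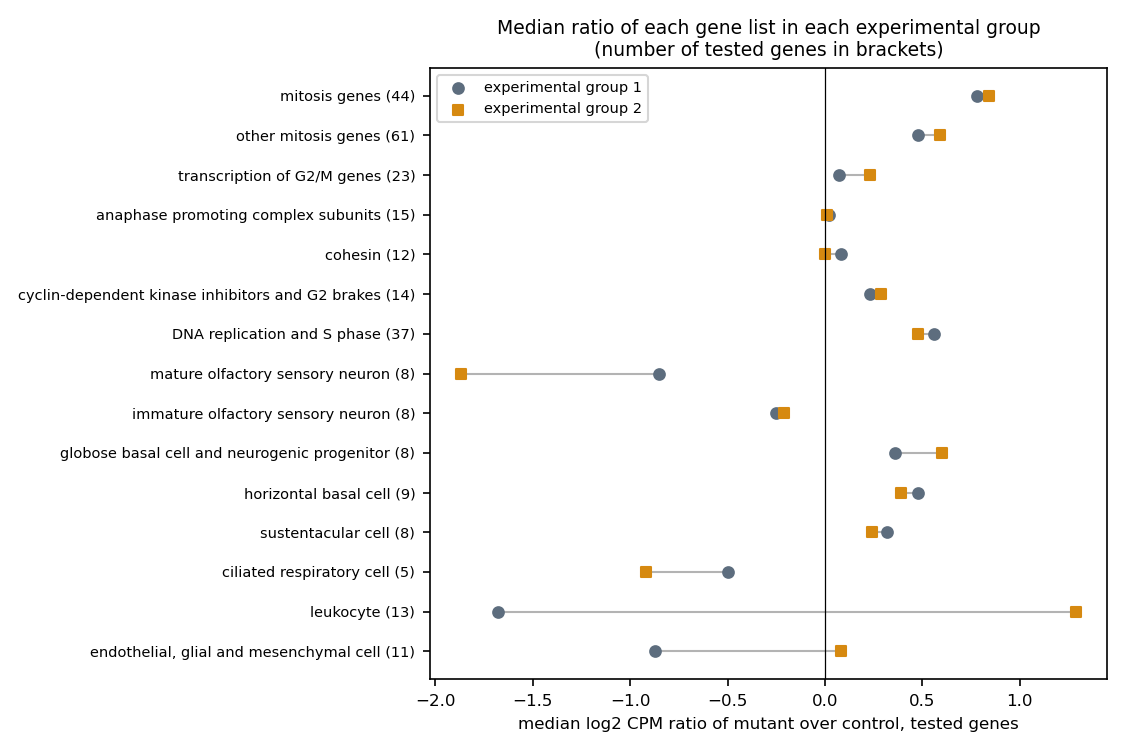
Median log2 CPM ratio of mutant over control for each gene list, within experimental group 1 (circles) and experimental group 2 (squares), with the number of tested genes in brackets. The mitosis genes lie furthest to the right in experimental group 1, at 0.78, and at 0.84 in experimental group 2, while mature neuron markers lie at -0.85 and -1.87 and leukocyte markers on opposite sides of 0.

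Among the cyclins, Cdk1 and the Cdc25 phosphatases that switch it on, 2 of 6 rose and both mutants lay above both controls in all 6. Ccna2 (cyclin A2, chromosome 3, 36564865 to 36572150) was at 7.87 and 15.0 CPM in control 1 and control 2 and at 23.7 and 31.6 CPM in mutant 1 and mutant 2 (log2 fold change 1.33, SE 0.29, edgeR FDR = 0.000518). The CPM ratio to the control of the same experimental group was 3.01 for mutant 1 and 2.11 for mutant 2, and the lower mutant lay above the higher control. Ccna2 shares 12.49% of its exon bases with Exosc9 on the opposite strand, a gene at 16.2 and 29.6 CPM in controls and 23.3 and 36.6 CPM in mutants, and how reads of the shared bases were assigned cannot be seen in the counts. Ccnb1 (cyclin B1, chromosome 13, 100778650 to 100786570) was at 16.1 and 13.5 CPM in the controls and 29.8 and 32.9 CPM in the mutants (log2 fold change 1.08, SE 0.26, edgeR FDR = 0.00186). Its samples fell into tight pairs by genotype. The second B-type cyclin gene, Ccnb2, was at 5.79 and 4.05 CPM in controls and 10.8 and 11.3 CPM in mutants, and its log2 fold change of 1.18 was close to that of Ccnb1 but, with an SE of 0.45, did not pass (edgeR FDR = 0.121).

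Cdk1, the kinase partner of these cyclins, had 21.5 and 11.6 CPM in the controls and 28.8 and 24.5 CPM in the mutants (log2 fold change 0.74, SE 0.28, edgeR FDR = 0.115). The controls differed from each other by more than mutant 1 differed from control 1. For Cdc25b, a phosphatase that activates Cdk1, the controls had 14.9 and 16.2 CPM and the mutants 28.7 and 21.6 CPM (log2 fold change 0.68, SE 0.28, edgeR FDR = 0.168). Its paralogue Cdc25c was among the least abundant members, at 2.64 and 2.52 CPM in controls and 5.98 and 4.54 CPM in mutants (log2 fold change 1.02, SE 0.62, edgeR FDR = 0.458).

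Of the mitotic kinases and spindle checkpoint genes, 0 of 6 passed, although their median log2 fold change was 0.88. Plk1, which drives mitotic entry and spindle assembly, was at 11.8 and 4.57 CPM in the controls and 15.9 and 12.5 CPM in the mutants (log2 fold change 0.92, SE 0.40, edgeR FDR = 0.208). Its ratio was larger in experimental group 2 (1.43) than in experimental group 1 (0.43). Aurka, a centrosomal kinase, had the smallest fold change of this role, with 9.59 and 12.8 CPM in controls and 19.9 and 15.2 CPM in mutants (log2 fold change 0.65, SE 0.35, edgeR FDR = 0.353). The largest belonged to Ttk, the checkpoint kinase MPS1, and rested on 1 library. Ttk had 7 counts in control 1 but 110 in control 2, 101 in mutant 1 and 73 in mutant 2, and its log2 ratio came to 3.48 within experimental group 1 but -0.08 within experimental group 2 (log2 fold change 1.72, SE 0.81, edgeR FDR = 0.380). Without control 1, and without the block, its log2 fold change was -0.16. Bub1, Bub1b and Mad2l1, which hold back anaphase until kinetochores are attached, had log2 fold changes of 0.84, 0.73 and 0.94 and did not pass.

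In the group of the anaphase promoting complex and separase, its activator Cdc20 and its ubiquitin-conjugating enzyme Ube2c rose. Cdc20 (chromosome 4, 118432901 to 118437352) was at 12.5 and 11.5 CPM in the controls and 39.9 and 21.9 CPM in the mutants (log2 fold change 1.30, SE 0.29, edgeR FDR = 0.000695). The controls were nearly alike, and mutant 1 exceeded mutant 2. Per length of transcript Cdc20 was the most abundant member, with a mean of 11.5 RPKM (CPM per kilobase of exon), whereas Ndc80 was the least, with 0.667 RPKM. Ube2c (chromosome 2, 164769898 to 164778822) was at 4.32 and 6.24 CPM in the controls and 16.5 and 12.9 CPM in the mutants, and its fold change was the largest among the members that passed (log2 1.49, SE 0.42, edgeR FDR = 0.0137). It shares 22.77% of its exon bases with Tnnc2 on the opposite strand, and Tnnc2 itself was at 0 to 0.524 CPM. Pttg1, or securin, which is destroyed at anaphase to free separase, was at 19.4 and 6.48 CPM in controls and 20.8 and 11.5 CPM in mutants, so genotypes overlapped (log2 fold change 0.44, SE 0.34, edgeR FDR = 0.614). Separase itself, Espl1, was at 9.72 and 3.52 CPM in controls and 9.76 and 7.73 CPM in mutants and did not pass (log2 fold change 0.55, edgeR FDR = 0.677).

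The chromosomal passenger complex corrects faulty attachments and later acts at the cleavage site. None of its 4 genes passed, and both mutants lay above both controls in all 4. Aurkb, its kinase, was at 9.12 and 3.43 CPM in the controls and 15.1 and 10.0 CPM in the mutants (log2 fold change 1.12, SE 0.43, edgeR FDR = 0.122). Birc5, or survivin, was at 9.29 and 4.14 CPM in controls and 9.45 and 9.96 CPM in mutants, with log2 ratios of 0.02 and 1.25 in the 2 experimental groups (log2 fold change 0.63, SE 0.47, edgeR FDR = 0.602). Control 1 was level with the mutants for Birc5, and control 2 alone lay lower. Incenp, the scaffold, and Cdca8, or borealin, were at 0.69 and 0.91 on the log2 scale, with edgeR FDRs of 0.405 and 0.189.

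Of 7 centromere and outer kinetochore genes, Cenpf, a large protein of the outer kinetochore, was the only one that rose. Cenpf (chromosome 1, 189640606 to 189688086) was at 7.04 and 18.1 CPM in the controls and 20.7 and 38.9 CPM in the mutants (log2 fold change 1.32, SE 0.28, edgeR FDR = 0.000253). Both experimental groups showed a ratio above 1 on the log2 scale (1.54 and 1.10). Spc25, a subunit of the NDC80 complex that binds microtubules, had the largest fold change in this role, with 1.73 and 5.48 CPM in controls and 6.68 and 12.1 CPM in mutants, and it lay just outside the threshold (log2 fold change 1.53, SE 0.51, edgeR FDR = 0.0557). Spc25 passed with no filter on low counts and with a filter on all 4 samples (edgeR FDR = 0.0301 and 0.038). Nuf2, of the same complex, had the smallest, with 17.0 and 9.48 CPM in controls and 22.6 and 12.3 CPM in mutants (log2 fold change 0.39, SE 0.31, edgeR FDR = 0.634). The other two subunits, Ndc80 and Spc24, had log2 fold changes of 1.24 and 0.66 and did not pass. Cenpa, the histone variant that marks centromeres, was at 8.38 and 5.43 CPM in controls and 16.4 and 9.22 CPM in mutants (log2 fold change 0.87, SE 0.40, edgeR FDR = 0.237), and the motor Cenpe was at 0.55 on the log2 scale (edgeR FDR = 0.539).

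Among kinesins and spindle assembly factors, 2 of 5 rose. Kif2c, or MCAK, which depolymerises microtubules at centromeres, was at 6.09 and 6.10 CPM in the controls and 15.4 and 15.1 CPM in the mutants (log2 fold change 1.32, SE 0.38, edgeR FDR = 0.0156). No other member called had replicates so close in both genotypes, and its ratios were 1.33 and 1.30. Kif11, or Eg5 (chromosome 19, 37376403 to 37421859), which pushes spindle poles apart, was at 9.59 and 18.4 CPM in the controls and 18.3 and 31.9 CPM in the mutants (log2 fold change 0.86, SE 0.28, edgeR FDR = 0.0411). Control 2 and mutant 1 were level, and the call rests on the comparison within experimental groups. Kif4, a chromosome-bound kinesin, had 10.1 and 11.7 CPM in controls and 9.50 and 13.4 CPM in mutants (log2 fold change 0.06, SE 0.38, edgeR FDR = 0.980). Nusap1, a microtubule-bundling protein, was at 8.38 and 15.4 CPM in controls and 10.0 and 14.3 CPM in mutants, and Tpx2, the activator of Aurka at the spindle, had a log2 fold change of 0.73 (edgeR FDR = 0.121).

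Genes of the central spindle and cytokinesis had the smallest median, 0.55, and 0 of 5 passed. Kif23, a subunit of centralspindlin, had the largest change, with 5.06 and 5.57 CPM in the controls and 7.42 and 13.6 CPM in the mutants (log2 fold change 0.92, SE 0.46, edgeR FDR = 0.306). Anln, or anillin, which organises the contractile ring, had the only negative fold change, with 12.1 and 14.5 CPM in controls and 11.4 and 12.7 CPM in mutants (log2 fold change -0.14, SE 0.35, edgeR FDR = 0.931). The 4 Anln values differed little from each other. Kif20a, Prc1 and Ect2 had log2 fold changes of 0.55, 0.42 and 0.79, and both mutants lay above both controls in each. Kif20a shares 29.3% of its exon bases with Cdc23 on the opposite strand and Prc1 11.08% with Rccd1. Kif4, Ncapg and Cdc25c share 12.67% to 15.09% in the same way. Whether reads of such bases were counted for either gene is unknown, because the strand setting is not given.

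The last role holds condensin, which compacts chromosomes, topoisomerase II and the surface layer of mitotic chromosomes. Top2a (chromosome 11, 98992943 to 99024189), which untangles sister chromatids, had the smallest p of all 44 members. It was at 42.7 and 69.1 CPM in the controls and 81.0 and 143 CPM in the mutants (log2 fold change 0.98, SE 0.16, edgeR FDR = 5.93e-07). Mki67 (chromosome 7, 135689784 to 135716361), which encodes the proliferation antigen Ki-67, was at 17.9 and 40.3 CPM in the controls and 30.5 and 72.7 CPM in the mutants (log2 fold change 0.81, SE 0.19, edgeR FDR = 0.00116). Control 2 lay above mutant 1 for Mki67, and within experimental groups the ratios were 0.76 and 0.85.

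Condensin subunits did not pass and were uneven. Ncaph, a subunit of condensin I, had the largest change of its role, with 6.05 and 4.86 CPM in the controls and 10.8 and 14.1 CPM in the mutants (log2 fold change 1.18, SE 0.43, edgeR FDR = 0.100). Smc2, one of the 2 ATPase subunits, had the smallest, with 13.6 and 27.0 CPM in controls and 12.9 and 30.0 CPM in mutants (log2 fold change 0.04, SE 0.27, edgeR FDR = 0.980). The other ATPase subunit, Smc4, and Ncapd2 were at 28.1 to 77.8 CPM and had log2 fold changes of 0.36 and 0.34 with SEs of 0.17 (edgeR FDR = 0.273 and 0.275). Ncapd2 shares exon bases with the small RNA gene Scarna10, and its own value is uncertain to that extent.

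Leaving out 1 library requires a model without the block, which called 0 members even with all 4 libraries. Only the size of the fold change can therefore be read, and it moved for some called members. Mki67 had a log2 fold change of 0.36 without control 1, 1.56 without control 2, 1.31 without mutant 1 and 0.10 without mutant 2. Top2a lay at 1.43 without control 2 and 0.57 without mutant 2, Kif11 at 0.46 without control 1, 1.43 without control 2 and 0.42 without mutant 2, Cenpf at 0.72 without control 1, 2.12 without control 2 and 0.75 without mutant 2, and Cdc20 at 0.86 without mutant 1. Kif2c varied least, from 1.30 to 1.37. No called member changed sign.

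**Figure D4:**
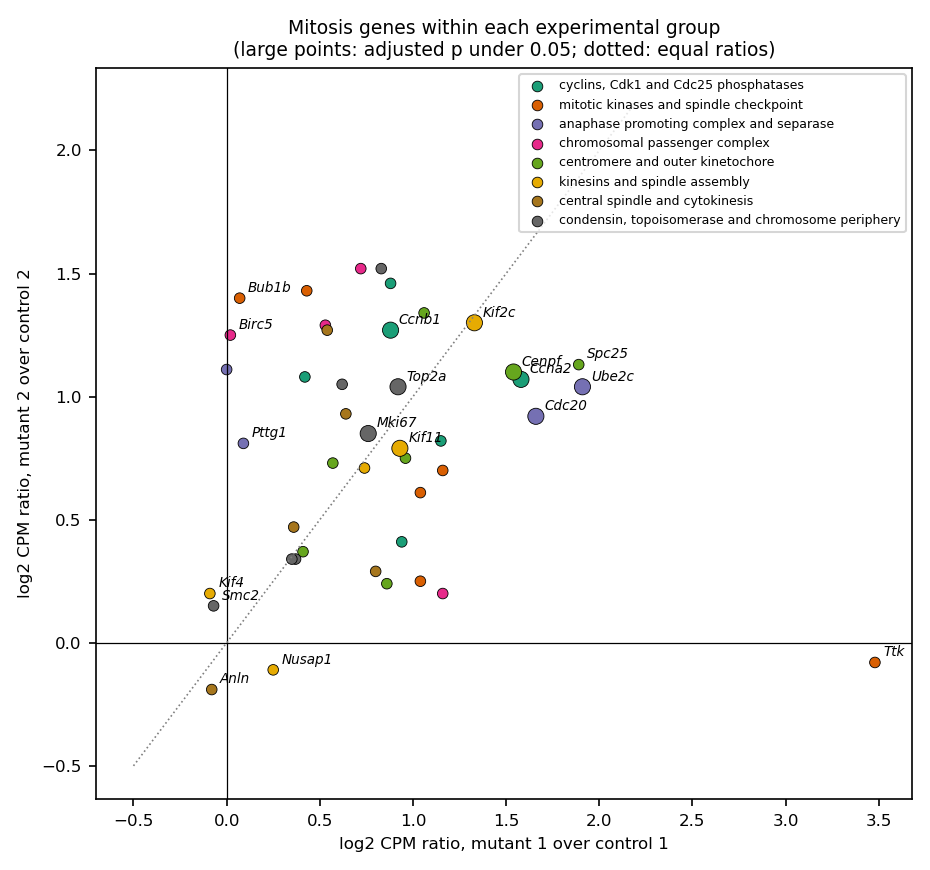
Log2 CPM ratio of mutant over control in experimental group 1 (horizontal) against experimental group 2 (vertical) for each member, coloured by role, with large points for an adjusted p under 0.05 and a dotted line of equal ratios. Of the 44 points 39 lie above 0 on both axes, the 9 large points between 0.76 and 1.91 in experimental group 1 and between 0.79 and 1.30 in experimental group 2, and Ttk lies alone at 3.48 and -0.08.

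Members also differed between the experimental groups. In the same model, 8 members were higher in experimental group 2 than in experimental group 1, or 18.2% compared with 17.7% of all tested genes, and 2 were lower, or 4.55% compared with 14.0%. The share of higher members thus lay near the background, and treatment, parents, age, sex and batch cannot be told apart in this comparison. Those higher were Top2a, Mki67, Cenpe, Cenpf, Ndc80, Kif11, Smc2 and Smc4. The log2 difference was 1.21 for Mki67 (SE 0.19, edgeR FDR = 7.3e-09) and 1.10 for Smc4 (SE 0.17, edgeR FDR = 9.57e-09). For both genes these values were larger than those between genotypes, 0.81 and 0.36. Nuf2 and Pttg1 were lower, by -0.86 (edgeR FDR = 0.0231) and -1.22 (edgeR FDR = 0.0027).

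The difference between experimental groups varied with exon length. The correlation across the 44 members between merged exon length and this coefficient was a Spearman's rho of 0.44, compared with 0.26 across 15276 tested genes with a known length, and all members were read from the same 4 libraries. The 22 members with the longer exons had a median difference of 0.44 and the 22 with the shorter exons -0.03. For the difference between genotypes rho was -0.21 across members and -0.05 across all genes, and the medians of the shorter and longer members were 0.88 and 0.80, with 5 and 4 of them called. Its cause was not tested.

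**Figure D5:**
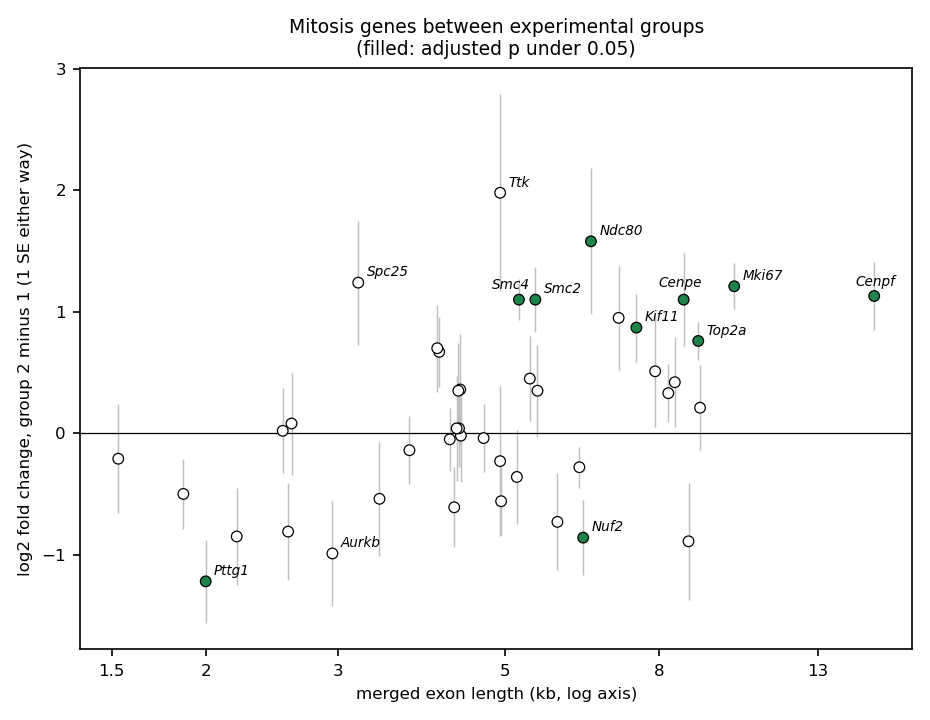
Merged exon length of each member in kb (log axis) against its log2 fold change between experimental group 2 and experimental group 1, with 1 SE either way and filled points for an adjusted p under 0.05. The 8 filled points above 0 are genes with over 5 kb of exon, and Pttg1, with 2 kb, lies at -1.22.

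Other genes of the pathway were read from lists with the same tests. Of 61 tested mitosis genes outside the 44, Cdca3 was higher and Ncapg2 lower, and the median log2 fold change was 0.63 with 52 positive values. The share higher, 1.64%, lay close to the 1.28% of all tested genes. The CPM of the 61 genes summed to 827 in control 1 and 908 in mutant 1, a ratio of 1.10. In control 2 and mutant 2 it summed to 1007 and 1027, a ratio of 1.02. Ncapg2, which fell, made up 200 and 388 CPM of the control sums. At an unadjusted p under 0.05, 13 of the 61 were higher, compared with 975 of the 15438 tested genes. Cdca3, a trigger of mitotic entry, was at 13.3 and 10.1 CPM in the controls and 31.0 and 21.1 CPM in the mutants (log2 fold change 1.14, SE 0.28, edgeR FDR = 0.0029). Ncapg2, a subunit of condensin II, was at 200 and 388 CPM in controls and 118 and 222 CPM in mutants (log2 fold change -0.78, SE 0.21, edgeR FDR = 0.00864). Within experimental groups 1 and 2 its log2 ratio was -0.76 and -0.80. Of the 15 core subunits and partners of the anaphase promoting complex that were tested, 0 rose or fell with the likelihood-ratio test, the quasi-likelihood test or DESeq2, 0 had an unadjusted p under 0.05 with the likelihood-ratio test, and their median log2 fold change was 0.05.

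The regulators of G2/M transcription had a median log2 fold change of 0.18. Of 23 tested, Rbl1 (p107), a pocket protein, alone was higher, or 4.35% compared with 1.28% of all tested genes. Rbl1 was at 9.38 and 18.7 CPM in the controls and 20.6 and 29.3 CPM in the mutants (log2 fold change 0.89, SE 0.29, edgeR FDR = 0.0424). It passed neither the quasi-likelihood test nor DESeq2 (FDR = 0.0792 and 0.103). Mybl2 (B-Myb) was at 2.29 and 1.95 CPM in controls and 6.42 and 5.08 CPM in mutants (log2 fold change 1.43, SE 0.62, edgeR FDR = 0.198), Foxm1 had a log2 fold change of 0.53 (edgeR FDR = 0.619) and E2f1 one of 0.34 (edgeR FDR = 0.862). Mybl2 and Foxm1 lay higher in both mutants than in both controls, and E2f1 did not.

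Genes that act before mitosis or hold it back were also read. In the DNA replication list, Mcm2, Mcm3, Mcm5, Mcm6 and Uhrf1 rose, 5 of 37 or 13.5%, compared with 1.28% of all tested genes. The median of the list was 0.59. Mcm2, a subunit of the replicative helicase, was at 28.1 and 18.6 CPM in the controls and 49.1 and 30.7 CPM in the mutants (log2 fold change 0.76, SE 0.21, edgeR FDR = 0.00947), and the log2 fold changes of the other four ran from 0.70 to 0.94. Pcna, the polymerase clamp, had a log2 fold change of 0.35 and did not pass (edgeR FDR = 0.311). With the quasi-likelihood test 3 of the 37 were higher, compared with 0.758% of all tested genes. With DESeq2 1 was higher, Mcm5, compared with 1.86% of the genes to which it gave an adjusted p. Of 14 tested inhibitors and brakes, Cdkn1b (p27) alone rose, or 7.14% compared with 1.28% of all tested genes. It was at 43.5 and 50.5 CPM in controls and 67.7 and 68.7 CPM in mutants (log2 fold change 0.54, SE 0.17, edgeR FDR = 0.0324). Cdkn1b passed neither the quasi-likelihood test nor DESeq2 (FDR = 0.0682 and 0.117). Cdkn1a and Cdkn1c changed by -0.35 and 0.11 on the log2 scale, with edgeR FDRs of 0.644 and 0.939, and did not pass. Among 12 cohesin genes the median was -0.01, and only Esco2 rose, or 8.33% compared with 1.28% of all tested genes. Esco2, the acetyltransferase that establishes cohesion in S phase, had 0.259 and 2.33 CPM in controls and 3.08 and 9.35 CPM in mutants (log2 fold change 2.66, SE 0.70, edgeR FDR = 0.00906). It did not pass the quasi-likelihood test (FDR = 0.0778).

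Markers of other cell types, within the lineage and outside it, were read beside the mitosis genes. Leukocyte markers summed to 646 and 797 CPM in the controls and 346 and 826 CPM in the mutants, 0 of 13 tested passed in either direction with the likelihood-ratio test, the quasi-likelihood test or DESeq2, 0 had an unadjusted p under 0.05 with the likelihood-ratio test, and Cd3e and Cd79a, which define T and B cells, were at 0 in at least 1 sample. Their sum within experimental group 1 fell to 0.535 of the control while the mitosis sum rose to 1.61. Within experimental group 2 the leukocyte sum was 1.04 of the control while the mitosis sum was 1.66. Gene by gene, the leukocyte median for mutant 1 over control 1 was -1.68 on the log2 scale, compared with 0.78 for the mitosis genes. For mutant 2 over control 2 the leukocyte median was 1.29, above the 0.84 of the mitosis genes. Erythroid markers summed to 3.52 to 7.37 CPM, with Hba-a1, Hba-a2 and Hbb-b2 listed at 0 in every sample, and these globin genes have near-identical copies whose reads may have been set aside. Endothelial, glial and mesenchymal markers summed to 777 and 132 CPM in controls and 427 and 117 CPM in mutants, with Col1a1 and Col1a2 lower of 11. Sustentacular cell markers summed to 9032 and 18385 CPM in controls and 11115 and 23079 CPM in mutants, ratios of 1.23 and 1.26, and 0 of 8 passed with the likelihood-ratio test, while 1 was higher at an unadjusted p under 0.05, 1 by the quasi-likelihood test and 2 by DESeq2. Immature neuron markers summed to 2126 and 1653 CPM in controls and 1735 and 1454 CPM in mutants, with Dcx lower of 8, and ciliated cell markers summed to 431 and 259 CPM in controls and 301 and 121 CPM in mutants, with 3 of 5 lower. None of these sums rose in both experimental groups by as much as that of the mitosis genes, and their part in the result was not tested.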

How the data were processed

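RNA-seq was performed on sorted Tomato-positive cells of 4 mice, 1 mouse per sample. Raw counts of reads per symbol were deposited, which the authors had obtained with HTSeq, after removal of rRNA reads with Bowtie2 2.0.6 and alignment of the remainder to mm10 with TopHat2 2.0.7 (tools, versions and build per the submitters' processing notes and the study's methods). The 5 tally lines of each file, of which reads outside genes made up 22.08% to 39.41% of uniquely aligned reads, entered neither library sizes nor tests. The strand setting of HTSeq is not given in the sources used here. Lengths, overlaps and positions were taken from GENCODE M21 (GRCm38, the build of mm10), in which 22899 of 23337 symbols (98.12%) were matched.

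Genes with more than 1 CPM in at least 2 samples (15438, all 44 members among them) entered the fit in edgeR 4.0.16 (R 4.3.3). TMM factors were applied, and genotype was tested beside experimental group in a negative binomial model with the likelihood-ratio test, as in the study's methods. The study itself tested 13560 genes, as many as were tested here in the alternative that kept the tally lines. P-values were adjusted (FDR) over all tested genes by the Benjamini-Hochberg method (threshold 0.05). SEs are Wald errors. CPM uses TMM-scaled library sizes. Log2 ratios within an experimental group (log2 CPM, prior count 2) set 1 mutant against 1 control without a test. Pairing by experimental group is stated in the labels, and across genes the deviations from genotype means correlated between same-numbered samples (r = 0.52). At 2 samples against 2 an exact permutation test of 1 value cannot go below p = 0.333.

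Total counts of 14833396 to 23704638 make 3 counts equal to 0.13 to 0.203 CPM, which covers counting error only. The members and gene lists, and the rule for the genes named, were chosen with earlier results of these data known. The genes named with values are a panel (Mki67, Top2a, Cdk1, Ccnb1, Ccnb2, Ccna2, Plk1, Aurkb, Cdc20, Birc5, Cenpa, Cdc25b and Pttg1), members past the threshold, the highest and lowest fold change of each role, and, of other lists, genes past the threshold and a panel of 9 (Foxm1, Mybl2, E2f1, Cdkn1a, Cdkn1b, Cdkn1c, Mcm2, Pcna and Lmnb1). Members added after their values were seen are Espl1, Cdc25c, Nusap1 and the other members given without a value for each sample. Alternatives were the quasi-likelihood test, DESeq2 1.42.0, no replicate block, RLE factors, no filter, a CPM filter on all 4 samples, thinning to the smallest library, tally lines kept, a background subtracted from mutant 1, and libraries or experimental groups left out. Members on chromosome 18 are given by value only.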

Additional observations from a re-analysis of the deposited data

Results flagged for a closer look

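In 4 members mutant and control differed in opposite directions in the 2 experimental groups, and whether the groups differ was not tested. The log2 ratio of mutant over control was 3.48 for Ttk within experimental group 1 and -0.08 within experimental group 2. The corresponding pairs were -0.09 and 0.20 for Kif4, 0.25 and -0.11 for Nusap1, and -0.07 and 0.15 for Smc2. Control 1 held 7 counts of Ttk. For Kif4, Nusap1 and Smc2 every ratio was smaller than the SE of the gene's fold change (0.38, 0.36 and 0.27).

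Leukocyte markers had a median log2 ratio of -1.68 within experimental group 1 and 1.29 within experimental group 2. For endothelial, glial and mesenchymal markers the medians were -0.87 and 0.08. Neither difference was tested.

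The HTSeq tally of reads outside genes, which entered no test except the alternative that kept it in the library sizes, was 39.41% of uniquely aligned reads for mutant 1, compared with 23.76% and 24.88% for the controls and 22.08% for mutant 2.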

How the results depend on the processing

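With RLE factors, tally lines kept or a background subtracted from mutant 1, 9 members were higher. It was 8 after thinning (without Kif11), 9 with no filter (Spc25 in, Kif11 out), 10 with CPM above 1 in all 4 samples (Spc25 in), and 6 with the quasi-likelihood test and with DESeq2, which gave no adjusted p for 29 members. Without the replicate block it was 0. Leaving out a library also needs a model without the block, so only fold changes are given for it. Such a fit of 2 libraries against 1 assumes that the lone library varies like the others. No member was lower in any of these settings. The median log2 fold change of members was 0.80 to 0.85 in settings with all 4 samples, and no filter moved the median of all genes to 0.14 from -0.01. With a library left out the median was 0.73 to 0.99 (0.75 without control 1, 0.99 without control 2, 0.73 without mutant 2), and it was 0.84 without replicate 1 and 0.78 without replicate 2, which leave 1 pair and no test. Other mitosis genes higher numbered 2 with CPM above 1 in all 4 samples, and 0 without the replicate block. Members lower in experimental group 2 numbered 1 with DESeq2, 1 with no filter, 3 with CPM above 1 in all 4 samples and 3 with tally lines kept, compared with 2. No fold change of a member changed sign in the settings with all 4 samples. With an experimental group left out it did so in 4, to -0.08 for Ttk, -0.11 for Nusap1, -0.09 for Kif4 and -0.07 for Smc2, and with a library left out in 10. The range with a library left out was -0.16 to 3.96 for Ttk, -0.09 to 1.36 for Cenpe, -0.12 to 0.89 for Nuf2, -0.17 to 0.29 for Kif4 (-0.02 without control 1), -0.34 to 0.58 for Nusap1 (-0.22 without mutant 2), -0.26 to 0.04 for Anln, -0.11 to 1.32 for Espl1, -0.23 to 1.33 for Pttg1 (-0.19 without mutant 1), -0.62 to 0.70 for Smc2 (-0.33 without control 1) and -0.26 to 1.05 for Smc4 (-0.10 without control 1). None of these 10 was called for genotype. The cause was not tested. Depth limits the members under 5 CPM on average, of which there are 3.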
